A study of Mus musculus with 21 samples.

Results

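The comparison described here is between the pituitaries of Zeb1-200M and WT female mice that had been through a breeding trial, profiled by small-RNA-seq. Members were taken from the labels and were the 7 libraries of these groups, 3 Zeb1-200M and 4 WT, out of 21 libraries in the series, with all 1841 miRNAs listed for this cohort. Zeb1-200M mice are homozygous for a knock-in allele of *Zeb1* in which point mutations disrupt the miR-200a/b sites of its 3′ UTR, so that the mRNA can no longer be repressed through them. WT mice carry the unmutated allele on the same C57BL/6J background. All were females of 28 to 36 weeks, euthanized in proestrus, and no mouse gave more than 1 library of this cohort. The 3 Zeb1-200H libraries of this cohort, from heterozygous females of the same age, and the 7 Zeb1-200M and WT libraries from virgin females of 8 to 12 weeks are used below only for comparison. Mice of the cohort descended from ES cell clones 3C5, 6B6 or an intercross of their lines, and the labels do not give the clone behind a sample. Most Zeb1-200M females of the trial had no litters, so effects of parity cannot be told apart from effects of genotype. Whole pituitaries were used, and in bulk RNA fewer cells of a type cannot be told apart from less of a miRNA per cell.

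MicroRNAs are short RNAs that guide repression of mRNAs, mostly by pairing of bases 2 to 8 (the seed) to sites in 3′ UTRs. Several miRNAs are often cut from 1 primary transcript (a cluster), and miRNAs that share a seed (a family) share most predicted targets, although members of a family can come from unrelated loci. ZEB1 and ZEB2 are transcriptional repressors of epithelial genes and of the miR-200 clusters, which repress them in turn. In the pituitary, miR-7 and miR-375 are characteristic of hormone-secreting cells, and miR-200 strands are abundant. The strands of the miR-200 superfamily served as the check of the labels, and the changes outside them are the subject of what follows.

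The 7 libraries held 84093 to 191650 miRNA counts, and 445 to 523 miRNAs had at least 1 count. Levels are given as CPM, counts brought to a common library total and scaled by TMM factors, which were 0.915 to 0.968 in WT and 1.08 to 1.12 in Zeb1-200M libraries, and are listed for WT replicates 1 to 4 and Zeb1-200M replicates 1 to 3. Before scaling, 1 count was worth 5.22 to 11.9 CPM, so miRNAs under about 100 CPM rest on few reads. Of the 10 miR-200 strands, the 7 that could be tested fell, with log2 fold changes between -3.61 and -2.80. Of these, miR-141-5p (-2.80) and miR-200b-5p (-3.17) passed the filter on low counts, described below, only through their WT libraries, where they are high. Their decreases add nothing to the check of the labels. The others would have passed on the libraries of either genotype alone, and lay between -3.61 and -2.90. On the first principal component, which held 70.2% of the variance, the genotypes did not overlap.

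Mature sequences of miRNAs on which the results turn are shown with the seed in capitals, written 5′ to 3′ as in RefSeq for GRCm38.p6, where 30 of the 39 miRNAs named by rule had an entry. The largest decreases outside the miR-200 strands were of miR-205-5p and of the 3 tested strands of the miR-183 cluster (miR-183, miR-96 and miR-182), which lies on chromosome 6 and yields 3 different seeds.
miR-205-5p: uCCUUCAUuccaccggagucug
miR-96-5p: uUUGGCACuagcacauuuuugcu
miR-183-5p: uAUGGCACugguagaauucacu
miR-182-5p: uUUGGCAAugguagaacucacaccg
Among the most abundant miRNAs, those that fell included 1 or more members of the miR-7 and miR-181 families, of the family of miR-148 and miR-152, and miR-335-5p.
miR-7a-5p: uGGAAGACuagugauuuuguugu
miR-181a-5p: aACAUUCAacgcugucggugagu
miR-181b-5p: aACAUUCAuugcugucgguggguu
miR-152-3p: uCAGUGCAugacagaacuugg
miR-335-5p: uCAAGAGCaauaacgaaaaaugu
The next pairs share a seed but come from different loci. The members of the first pair rose together, and those of the second moved in opposite directions.
miR-330-5p: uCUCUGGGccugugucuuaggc
miR-326-3p: cCUCUGGGcccuuccuccagu
miR-125b-5p: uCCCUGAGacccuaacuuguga
miR-125a-5p: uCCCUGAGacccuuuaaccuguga
From the imprinted Dlk1-Dio3 region on chromosome 12, the strands that moved furthest in each direction are shown, followed by the members of the cluster of miR-216 and miR-217 that rose.
miR-544-3p: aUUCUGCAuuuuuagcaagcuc
miR-540-5p: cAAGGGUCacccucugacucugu
miR-216a-5p: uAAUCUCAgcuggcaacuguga
miR-217-5p: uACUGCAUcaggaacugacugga

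Expression outside the miR-200 strands changed widely but mostly by less than 2-fold. Of 276 miRNAs tested with the quasi-likelihood F test of edgeR (Benjamini-Hochberg adjusted p under 0.05), 99 were called (35.9%), 56 higher (20.3%) and 43 lower (15.6%) in Zeb1-200M. With the miR-200 strands set aside, 92 of 269 were called, and they were 56 increases and 36 decreases. Increases ranged from 1.21-fold to 5.56-fold with a median of 1.57, and 12 exceeded 2-fold. Decreases ranged from 1.20-fold to 7.88-fold with a median of 1.54, and 5 exceeded 2-fold. Of the 56 increases, 8 passed the filter on low counts (10 counts at the median library size in at least 3 libraries) only with the help of Zeb1-200M libraries, and of the 36 decreases, 2 passed only with that of WT libraries, so that a difference is built into their selection. The 8 were miR-217-5p, miR-223-3p, miR-450a-5p, miR-467d-5p, miR-532-5p, miR-669c-5p, miR-669d-5p and miR-770-3p, and the 2 were miR-125a-3p and miR-183-5p. CPM did not overlap between the genotypes for 50 of the 56 increases and 32 of the 36 decreases, against 109 of all 276 miRNAs tested (39.5%). The rule for the 12 largest increases and 12 largest decreases named below required this, so it is no support for them. Decreases were mostly of abundant miRNAs, with 24 of 36 above 1000 CPM in WT, compared with 15 of 56 increases and 98 of the 269 tested. The WT level is part of the fold change, which favours such a split. By the mean over the 7 libraries, the median was 1340 CPM for decreases, 609 CPM for increases and 577 CPM for the 269 tested.

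The balance of the directions depends on the scaling. When library totals replaced TMM factors, a setting chosen after seeing the data, the median log2 fold change of all tested miRNAs moved from 0.00 to 0.24, and the calls became 84 increases and 26 decreases, a share of increases of 76.4% compared with 56.6%. Changes below are relative to the TMM scale. No called miRNA changed its direction under any setting. Of the 92 calls, 44 held, at an adjusted p under 0.05, in every setting that tested them, 14 of the 17 over 2-fold among them. These 14 include miR-183-5p, miR-223-3p and miR-669d-5p, which passed the filter only with libraries of the genotype where they are high. That the calls of these held is not read as support. With the DESeq2 Wald test 20 of the 92 were not called, and of the miRNAs described below these included miR-32-5p, miR-125a-3p, miR-212-5p, miR-217-5p, miR-362-5p, miR-450a-5p, miR-467d-5p, miR-669c-5p and miR-770-3p. Without a filter on low counts 18 of the 92 were not called, among them miR-125a-3p, miR-126a-3p, miR-127-5p, miR-145a-5p, miR-212-5p, miR-217-5p, miR-450a-5p, miR-669c-5p and miR-770-3p.

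**Figure D1:**
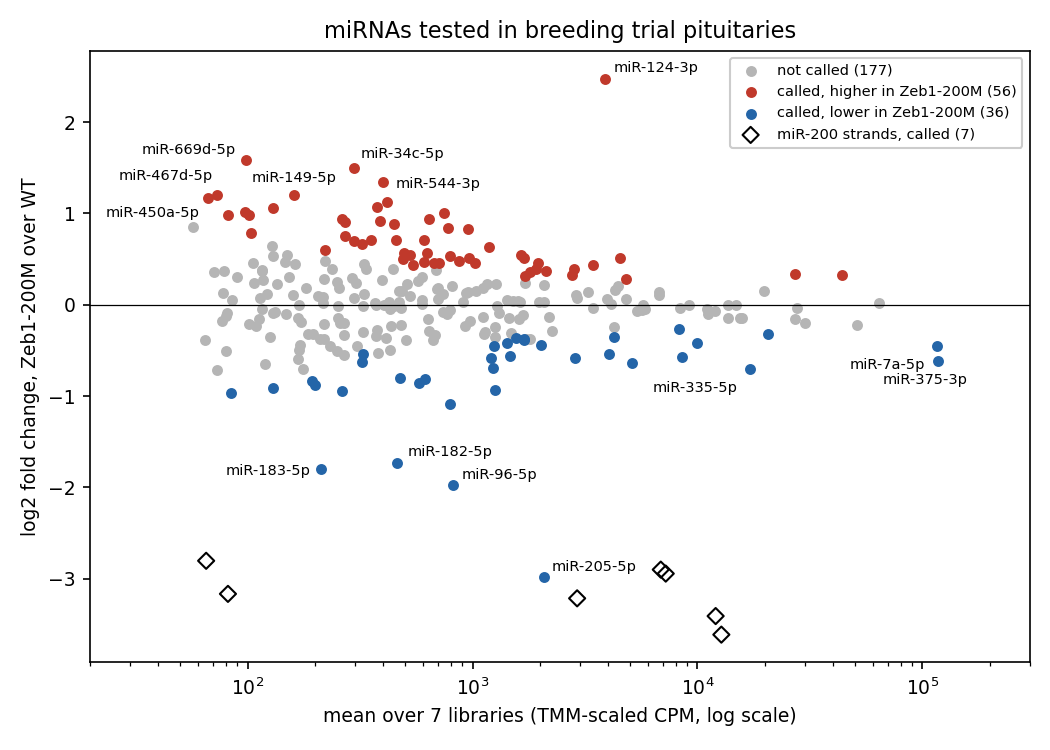
Each point is 1 of the 276 miRNAs tested, plotted by its mean level over the 7 libraries (TMM-scaled CPM, log scale) and its log2 fold change of Zeb1-200M (n = 3) over WT (n = 4). Most of the 92 called miRNAs outside the miR-200 strands lie within 1 log2 unit of 0, and miR-205-5p is the only one of them with a log2 fold change as low as those of the miR-200 strands.

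miR-205-5p, an epithelial miRNA that is itself known to target *Zeb1* and *Zeb2* mRNAs, showed the largest decrease. It was at 3182, 4091, 3246 and 2756 CPM in WT and at 305, 565 and 364 CPM in Zeb1-200M. The groups were far apart, with a log2 fold change of -2.98 ± 0.18 (SE, edgeR adjusted p = 1.5e-13). Its hairpin, *Mir205* (ENSMUSG00000065533), lies on the minus strand of chromosome 1 (GRCm38, 193507463 to 193507530) in an exon of the long noncoding RNA 4631405K08Rik. The other epithelial miRNAs listed, miR-203-3p, miR-31-5p, miR-192-5p and miR-194-5p, had log2 fold changes between -0.23 and -0.16, and none passed the test.

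All 3 strands tested from the miR-183 cluster, best known from sensory organs, fell, beside 15.6% lower of all miRNAs tested. Of these, miR-183-5p passed the filter on low counts only with its WT libraries, where it is high. The cluster occupies 3820 bp of chromosome 6 (GRCm38, 30165918 to 30169737, minus strand). miR-96-5p was at 1271, 1066, 1214 and 1261 CPM in WT and at 253, 407 and 248 CPM in Zeb1-200M. miR-182-5p was at 696, 620, 856 and 481 CPM in WT and at 168, 203 and 204 CPM in Zeb1-200M. miR-183-5p was at 277, 328, 371 and 252 CPM in WT and at 84.2, 128 and 43.7 CPM in Zeb1-200M. No library of one genotype reached the range of the other for any of the 3 strands, which the rule for the largest decreases required. The log2 fold changes were -1.98 ± 0.18 for miR-96-5p, -1.80 ± 0.30 for miR-183-5p and -1.73 ± 0.22 for miR-182-5p, with edgeR adjusted p between 1.4e-09 and 4.6e-05.

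The 2 most abundant miRNAs of the WT pituitary, miR-375-3p and miR-7a-5p, both decreased. miR-375-3p, known from pancreatic islets and other endocrine cells, was at 135003, 148994, 140988 and 124470 CPM in WT and at 83004, 100848 and 84640 CPM in Zeb1-200M. This is a log2 fold change of -0.62 ± 0.10 (edgeR adjusted p = 3.2e-05), and the groups did not overlap. miR-7a-5p, which is also high in endocrine cells, was at 146146, 105996, 137192 and 137993 CPM in WT and at 100482, 98580 and 90244 CPM in Zeb1-200M. Here the log2 fold change was -0.45 ± 0.11 (edgeR adjusted p = 0.0017), WT replicate 2 stood close to the Zeb1-200M libraries, and with library totals the adjusted p was 0.068. All 4 tested strands of the miR-7 family lay below 0, with a median of -0.33, but miR-7a-5p alone was called. *Mir375* lies on chromosome 1 (GRCm38, 74900658 to 74900721, minus strand) outside annotated genes, whereas the hairpins of miR-7a lie in an intron of *Hnrnpk* on chromosome 13 and, outside annotated genes, on chromosome 7.

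Further abundant miRNAs that fell belonged to several families. miR-335-5p, which is cut from an intron of the imprinted gene *Mest*, went from 20508 ± 2502 CPM (SD, n = 4) in WT to 12597 ± 717 CPM (SD, n = 3), and its passenger strand miR-335-3p fell with it (log2 fold changes of -0.70 ± 0.10 and -0.56 ± 0.12). miR-152-3p, from an intron of *Copz2*, went from 9919 ± 515 to 6693 ± 816 CPM, a log2 fold change of -0.57 ± 0.10. The miRNAs that share its seed, miR-148a-3p and miR-148b-3p, stood at -0.00 and -0.14 and were not called. miR-181a-5p, a family known from lymphocytes and neurons, was at 6079, 6715, 6825 and 4647 CPM in WT and at 3872, 4038 and 3753 CPM in Zeb1-200M, with a log2 fold change of -0.63 ± 0.12. miR-181b-5p, which shares both of its primary transcripts, had -0.42 ± 0.14, whereas miR-181c-5p and miR-181d-5p from another locus had -0.08 and -0.00. Groups did not overlap for miR-335-5p, miR-152-3p, miR-181a-5p or miR-181b-5p, and edgeR adjusted p was between 7.9e-06 and 0.021. The call of miR-181b-5p was lost with library totals (adjusted p = 0.31) and when any one of 5 libraries was left out, all except WT replicates 3 and 4 (adjusted p of 0.0501 to 0.0683).

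Smaller decreases among the 10 most abundant called miRNAs were those of miR-30d-5p (-0.42 ± 0.10), miR-125a-5p (-0.32 ± 0.10) and miR-26b-5p (-0.27 ± 0.09). With library totals these 3 were at -0.18, -0.08 and -0.03 and were no longer called. The call of miR-125a-5p was also lost without WT replicate 2 (adjusted p = 0.0508) or Zeb1-200M replicate 1 (adjusted p = 0.13). For miR-26b-5p it was lost without WT replicate 1 (0.11) or Zeb1-200M replicates 1 (0.077) or 3 (0.16), as adjusted p. In the opposite direction, miR-29b-3p (0.33 ± 0.11) and miR-125b-5p (0.34 ± 0.09) rose. Levels of miR-29b-3p overlapped between the genotypes, and its call was lost without WT replicates 1 (adjusted p = 0.054) or 3 (0.11) or Zeb1-200M replicate 1 (0.16). miR-125b-5p was no longer called without Zeb1-200M replicate 2 (adjusted p = 0.068).

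Other decreases, of 1.49-fold to 1.91-fold, were seen at unrelated loci. miR-484, one of the miRNAs known to be made without cleavage by the Microprocessor, was at 1406, 1977, 1457 and 1496 CPM in WT and at 894, 821 and 780 CPM in Zeb1-200M (log2 fold change of -0.93 ± 0.14, edgeR adjusted p = 1.9e-05). miR-320-3p, another such miRNA and chosen here after its values were seen, had -0.58 ± 0.12 (adjusted p = 0.00058), with 3340 CPM on average in WT and 2235 CPM in Zeb1-200M. Neither overlapped between the genotypes, which the naming rule required of miR-484. miR-34a-5p, a well-known target of p53, was at 824, 738, 537 and 751 CPM in WT and at 326, 482 and 379 CPM in Zeb1-200M, a log2 fold change of -0.86 ± 0.18 (adjusted p = 0.00075). miR-34c-5p of the same family moved the other way, as described below.

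The remaining 4 of the 12 largest decreases rested on lower levels, and single libraries decided their calls. Mean levels went from 238 to 134 CPM for miR-32-5p (-0.83 ± 0.26), from 162 to 88.4 CPM for miR-362-5p (-0.91 ± 0.31), from 252 to 128 CPM for miR-3072-3p (-0.88 ± 0.29) and from 106 to 56.8 CPM for miR-125a-3p (-0.97 ± 0.35). The edgeR adjusted p lay between 0.017 and 0.030. miR-32-5p lost its call without WT replicate 1 (adjusted p = 0.091) or Zeb1-200M replicate 2 (0.076). For miR-3072-3p this held without WT replicate 2 (0.074) or Zeb1-200M replicates 1 (0.078) or 3 (0.10). The call of miR-125a-3p was lost in 3 of the 5 such fits that tested it, since without WT replicates 1 or 4 it did not pass the filter, and that of miR-362-5p in 5 of 7, with adjusted p up to 0.22 for miR-125a-3p without Zeb1-200M replicate 3 and up to 0.098 for miR-362-5p without the same library. For miR-125a-3p the others were WT replicate 2 (0.057) and Zeb1-200M replicate 2 (0.076). For miR-362-5p they were WT replicates 2 (0.085) and 4 (0.069) and Zeb1-200M replicates 1 (0.052) and 2 (0.068). With the DESeq2 Wald test the adjusted p of miR-125a-3p and miR-362-5p was 0.145 and 0.0854, and with library totals 0.0859 and 0.0833. The calls of miR-32-5p (adjusted p = 0.0762) and miR-3072-3p (0.088) were also lost with library totals, and that of miR-32-5p with the DESeq2 Wald test (0.0514).

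**Figure D2:**
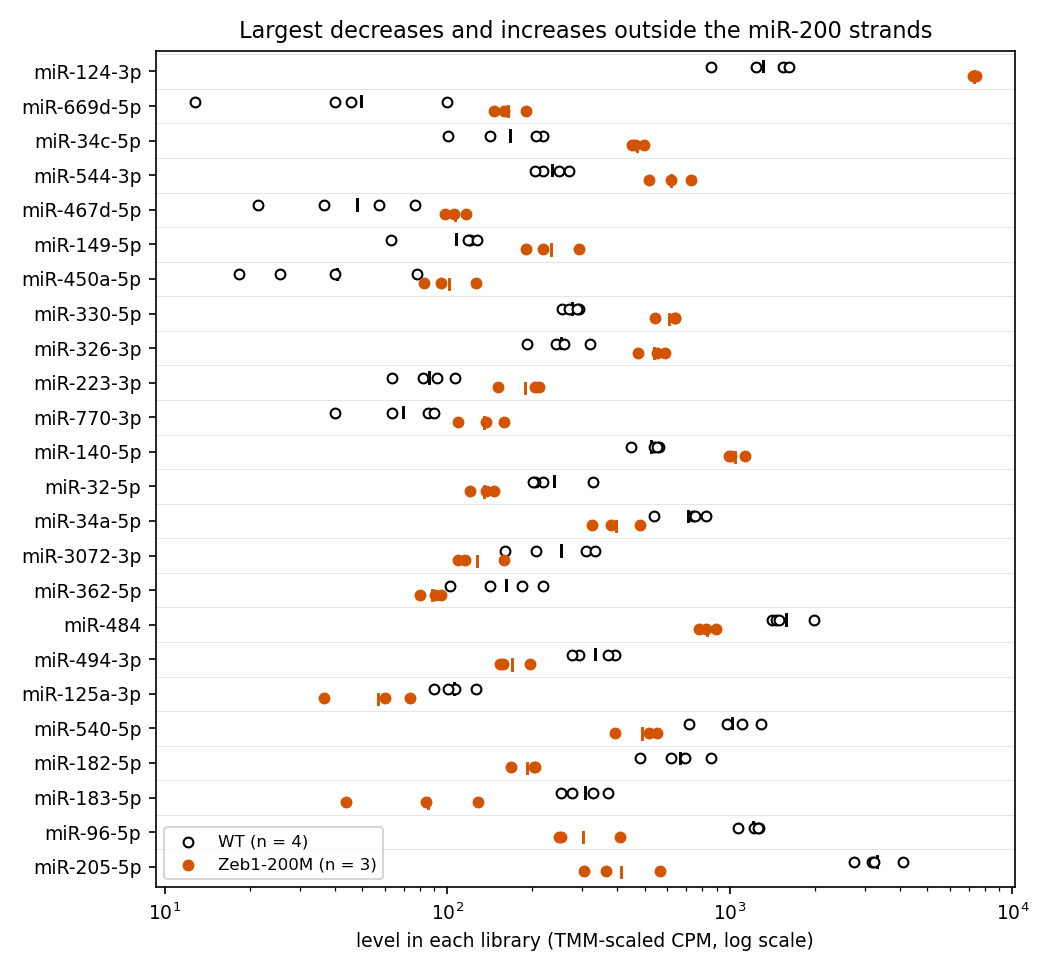
Levels in each library (TMM-scaled CPM, log scale) of the 12 largest increases and the 12 largest decreases outside the miR-200 strands, with WT libraries as open circles, Zeb1-200M libraries as filled circles and group means as ticks. The genotypes do not overlap for any of the 24, which the naming rule required, and the Zeb1-200M libraries of miR-124-3p lie between 7239 and 7419 CPM, above a highest WT value of 1622 CPM.

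Among the increases, miR-124-3p, the most abundant miRNA of neurons, stood apart. It was at 1236, 856, 1547 and 1622 CPM in WT and at 7419, 7239 and 7367 CPM in Zeb1-200M, a log2 fold change of 2.48 ± 0.14 (edgeR adjusted p = 4.6e-14). The Zeb1-200M libraries were tightly grouped and far above WT. The mature strand can come from 3 hairpins, on chromosomes 14, 3 and 2, which reads do not distinguish. The passenger strand miR-124-5p was too low to be tested, with 0 to 1 counts per WT library and 1 to 4 counts per Zeb1-200M library.

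miR-34c-5p, a miRNA of ciliated and germ cells whose family includes miR-34a, was at 142, 100.2, 217.3 and 206 CPM in WT and at 463, 497 and 452 CPM in Zeb1-200M. It rose by a log2 fold change of 1.496 ± 0.22 (edgeR adjusted p = 1.3e-05). miR-140-5p, known from cartilage and lying within *Wwp2* on chromosome 8, was at 447, 538, 562 and 550.1 CPM in WT and at 1010, 1130 and 991 CPM in Zeb1-200M (1.00 ± 0.15, adjusted p = 1.0e-05). Its opposite strand miR-140-3p rose by 0.71 ± 0.21, a call that was lost without Zeb1-200M replicate 1 (adjusted p = 0.077). miR-223-3p, a miRNA of myeloid cells, went from 86.0 ± 17.9 to 188 ± 32.8 CPM (1.06 ± 0.28, adjusted p = 0.0048). It passed the filter on low counts only through its Zeb1-200M libraries. miR-149-5p, from an intron of *Gpc1*, went from 108 ± 29.9 to 233 ± 52.6 CPM (1.20 ± 0.28, adjusted p = 0.0017). In all of these the lowest Zeb1-200M library was above the highest WT library, which the naming rule required of all but miR-140-3p.

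miR-450a-5p, from an X-linked cluster with miR-322 and miR-351, was seen with only 2 to 11 counts in WT and 11 to 13 counts in Zeb1-200M libraries, and had a log2 fold change of 1.17 ± 0.40 (edgeR adjusted p = 0.025). Its call was lost without WT replicates 2 (adjusted p = 0.080) or 4 (0.066) or Zeb1-200M replicates 1 (0.096) or 3 (0.055). The other tested members of the cluster, miR-322-5p and miR-351-5p, were not called.

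miR-330-5p and miR-326-3p, which share the seed CUCUGGG, rose together from separate loci on chromosome 7, at the edge of an exon of *Eml2* and in an intron of *Arrb1*. miR-330-5p was at 291, 255, 268 and 287 CPM in WT and at 642, 542 and 641 CPM in Zeb1-200M. miR-326-3p was at 241, 319, 192 and 258 CPM in WT and at 589, 475 and 554 CPM in Zeb1-200M. Neither overlapped between the genotypes, which the naming rule required. The log2 fold changes were 1.13 ± 0.18 and 1.07 ± 0.19 (edgeR adjusted p of 2.2e-05 and 0.00014).

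Members of several clusters rose. From the cluster in an intron of *Sfmbt2* on chromosome 2 (GRCm38, 10466663 to 10518279, plus strand), a rodent-specific array expressed from the paternal allele, 4 of 54 listed strands passed the filter on low counts, of which miR-467a-5p alone would have passed on its WT libraries. The other 3 passed through their Zeb1-200M libraries, so the number of called strands is not read as support. miR-669d-5p was at 99.4, 45.6, 12.8 and 40.1 CPM in WT and at 189, 158 and 146 CPM in Zeb1-200M (log2 fold change of 1.58 ± 0.36, edgeR adjusted p = 0.0014). miR-467d-5p (1.20 ± 0.37), miR-669c-5p (0.98 ± 0.38) and miR-467a-5p (0.67 ± 0.21) followed. Levels of miR-669c-5p overlapped between the genotypes, and it was called by a narrow margin (adjusted p = 0.047).

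These hairpins are near-identical copies, so the assignment of reads among them is uncertain, and the summed level is given beside the single strands. Summed over all listed strands, the cluster was at 653, 829, 844 and 1031 CPM in WT and at 1663, 1235 and 1355 CPM in Zeb1-200M, without overlap. The calls depended on single libraries, other than that of miR-669d-5p. miR-467a-5p lost its call without WT replicate 1 (adjusted p = 0.086) or Zeb1-200M replicate 1 (0.070), and miR-467d-5p without WT replicate 1 (0.052) or Zeb1-200M replicate 3 (0.062). miR-669c-5p was not called without WT replicates 1 (0.14) or 3 (0.092) or Zeb1-200M replicates 1 (0.29) or 3 (0.098).

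Of the cluster of miR-216 and miR-217 on chromosome 11 (GRCm38, 28746191 to 28763835, plus strand), best known from the exocrine pancreas, 3 strands were tested. miR-216a-5p was at 199, 118, 192 and 269 CPM in WT and at 305, 377 and 437 CPM in Zeb1-200M (0.90 ± 0.24, edgeR adjusted p = 0.0044). miR-217-5p went from 80.5 ± 15.0 to 135 ± 9.82 CPM (0.78 ± 0.30, adjusted p = 0.043), having passed the filter on low counts through its Zeb1-200M libraries, and miR-216b-5p, at 0.37 ± 0.30, was not called. WT replicate 3 was the only library that could be left out without loss of the miR-217-5p call, and the adjusted p was 0.073 to 0.14 without any of the other 6. Both miR-135 strands tested rose, beside 20.3% higher of all miRNAs tested, miR-135a-5p by 0.51 ± 0.11 and miR-135b-5p by 0.75 ± 0.23, and the latter was not called without Zeb1-200M replicate 3 (adjusted p = 0.097). Both strands of the *Mir384* hairpin on chromosome X rose, miR-384-5p by 0.64 ± 0.13 and miR-384-3p by 0.83 ± 0.14. The former shares the miR-30 seed, of whose other tested carriers miR-30d-5p fell by 0.42 ± 0.10, as above, and miR-30a-5p and miR-30e-5p, at -0.00 and -0.10, were not called.

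**Figure D3:**
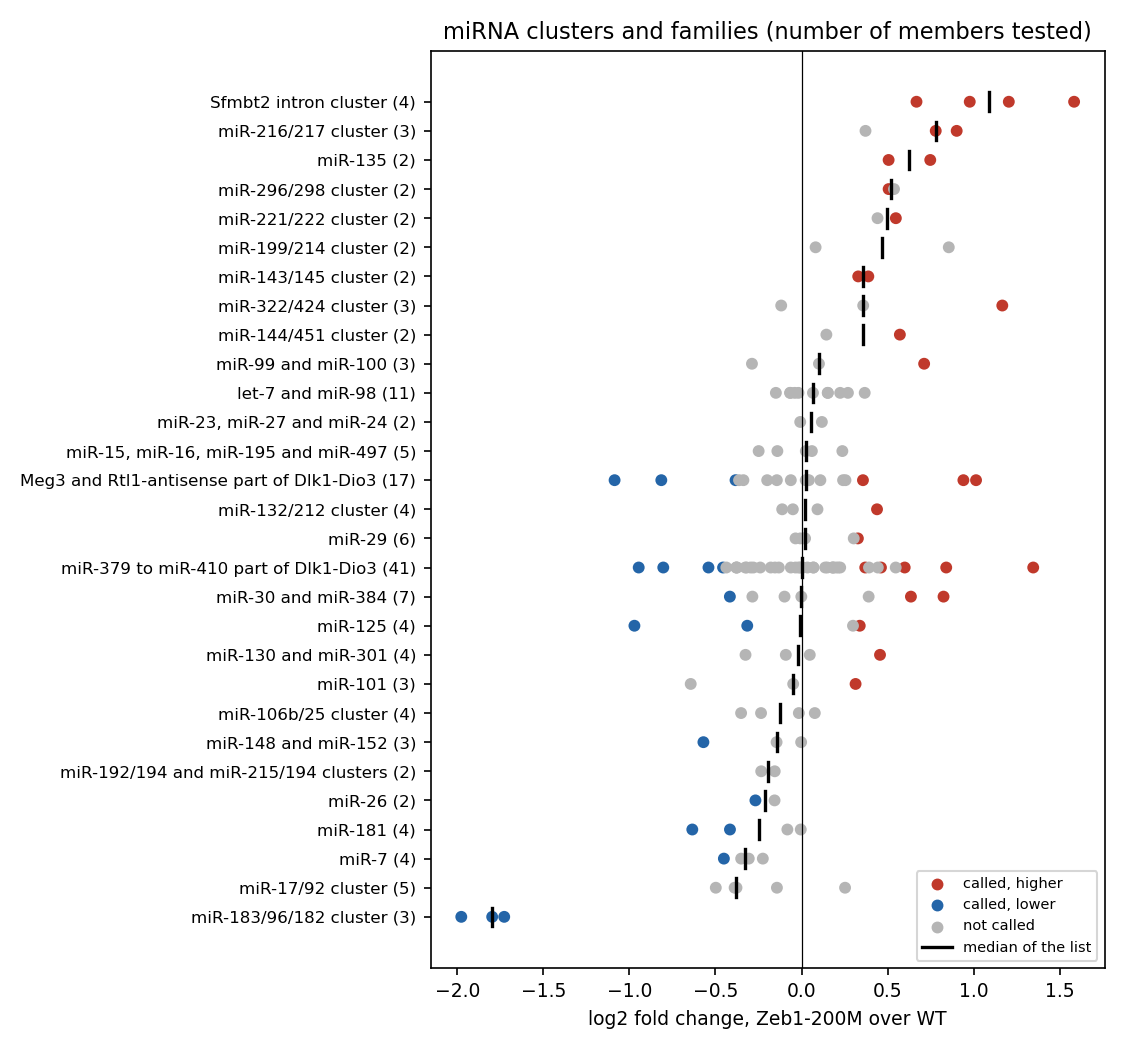
Log2 fold changes of Zeb1-200M over WT for the tested members of 29 miRNA clusters and families with at least 2 tested members, ordered by their medians (ticks). The miR-183 cluster lies apart on the left, the Sfmbt2 cluster and that of miR-216 and miR-217, each with strands that passed the filter only through Zeb1-200M libraries, lie at the right, and the members of the Dlk1-Dio3 region spread to both sides of 0.

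The 2 parts of the imprinted Dlk1-Dio3 region on chromosome 12, whose miRNAs are expressed from the maternal allele and are abundant in brain and pituitary, changed in both directions. In the part that includes *Meg3* and *Rtl1* antisense, 3 of 17 tested strands were higher and 3 lower, with a median of 0.02. In the part from miR-379 to miR-410, 5 of 41 were higher and 4 lower, with a median of 0.00, the same as over all 276 tested miRNAs. These shares of called strands are at or below the 35.9% of all miRNAs tested. With library totals, 5 of the 17 were higher and 2 lower in the first part, with a median of 0.26. In the second, 11 of the 41 were higher and 3 lower, with a median of 0.24, beside 0.24 over all tested miRNAs. The balance of directions within the region thus depends on the scaling too. miR-3072-3p, which lies beyond miR-410 (GRCm38 chromosome 12, 109747878 to 109747960, plus strand) at an exon edge of *Mirg* and fell by 0.88 as above, is in neither list.

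Called strands of both directions lay in each part. miR-770-3p and miR-770-5p, both from an exon of *Meg3* (GRCm38 chromosome 12, 109563692 to 109563785, plus strand), rose by 1.01 ± 0.33 and 0.94 ± 0.22. miR-540-5p (109586080 to 109586146) was at 973, 1285, 716 and 1100 CPM in WT and at 516, 391.7 and 554 CPM in Zeb1-200M, a log2 fold change of -1.09 ± 0.18 (edgeR adjusted p = 4.7e-05), and miR-337-3p beside it fell by 0.81 ± 0.18. In the second part, miR-544-3p (109729325 to 109729402) was at 249, 219, 204 and 269 CPM in WT and at 726, 618 and 517 CPM in Zeb1-200M. It rose by 1.35 ± 0.19 (adjusted p = 6.2e-06), and miR-487b-3p near it rose by 0.84 ± 0.16. miR-494-3p (109715318 to 109715402) was at 391, 292, 371 and 275 CPM in WT and at 158, 196 and 153 CPM in Zeb1-200M, a log2 fold change of -0.95 ± 0.23 (adjusted p = 0.0026). The groups were apart for miR-540-5p, miR-544-3p and miR-494-3p, which the naming rule required. Leaving out WT replicate 4 (adjusted p = 0.094) or Zeb1-200M replicate 2 (adjusted p = 0.11) removed the call of miR-770-3p, which had 7 to 12 counts in WT and 13 to 21 in Zeb1-200M libraries.

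**Figure D4:**
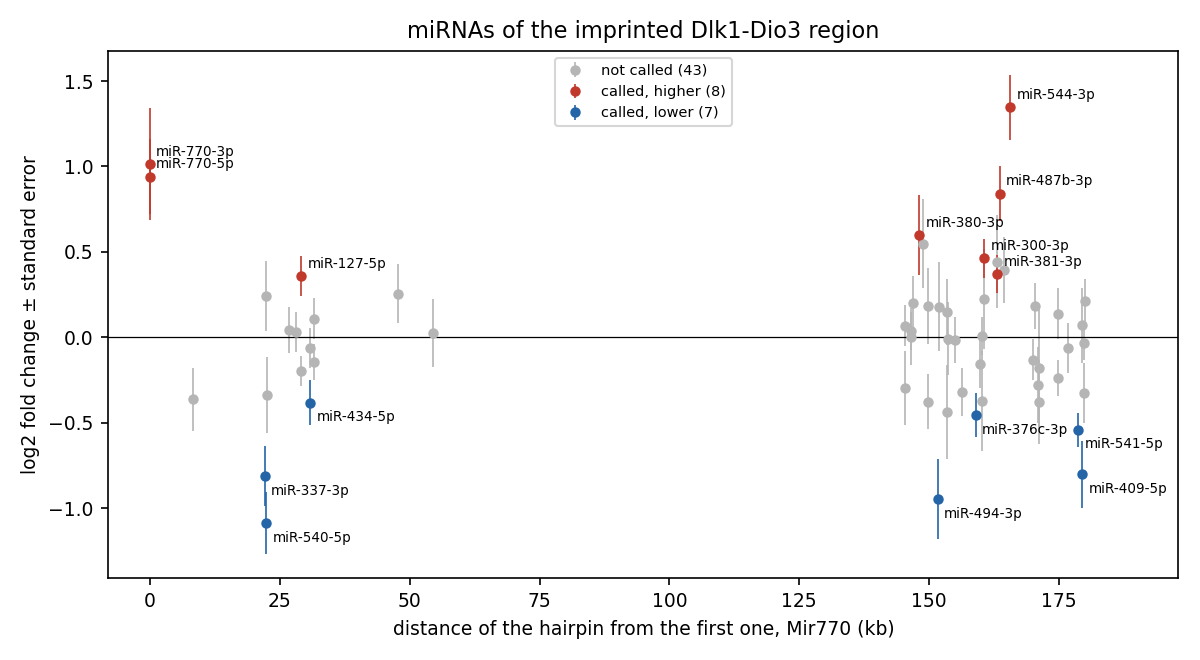
Log2 fold change of Zeb1-200M over WT with its standard error for the 58 tested strands of both lists of the Dlk1-Dio3 region, miR-3072-3p not included, against the distance of their hairpin from *Mir770* in kb. On the TMM scale used here, called increases (8) and decreases (7) occur in both parts of the region. With library totals, increases outnumber decreases in each part.

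Other large families gave few or no calls among their tested strands, and let-7a and let-7c had no tested strand. With edgeR and TMM scaling, none of the 11 tested strands of let-7 and miR-98 was called (median 0.07), nor any of the 5 of miR-15, miR-16, miR-195 and miR-497 (0.02), the 5 of the miR-17/92 cluster (-0.38) or the 4 of the miR-106b/25 cluster (-0.13). With DESeq2 size factors in place of TMM, 1 strand of each of these 2 clusters was called lower, miR-19b-3p and miR-106b-5p respectively. Of the miR-29 family, miR-29b-3p alone of 6 was called, against 3 with library totals. With library totals, 3 of the 11 let-7 and miR-98 strands and 2 of the 5 of miR-15, miR-16, miR-195 and miR-497 were called higher, with medians of 0.30 and 0.26 beside 0.24 over all tested miRNAs, and the median of the miR-106b/25 cluster changed its sign to 0.11.

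To follow families rather than single strands, counts were summed over the listed miRNAs that have a RefSeq sequence and share a seed. These were 244 of the 276 tested, so a sum can lack members of its family, such as miR-30d-5p and miR-34c-5p. It also lacks members whose first 18 bases another miRNA shares, since no such name is listed for this cohort. In all, 66 of 197 seed families were called (33.5%), 35 higher and 31 lower. Of the 26 families with at least 2 tested members, 3 were higher and 6 lower, 2 of the latter being those of the miR-200 superfamily. The CUCUGGG family of miR-330-5p and miR-326-3p rose by 1.11 ± 0.15 (edgeR adjusted p = 8.0e-07), from 528 ± 48.4 to 1148 ± 115 CPM. Families of miR-221-3p and miR-222-3p (0.51 ± 0.16) and of miR-193a-3p and miR-193b-3p (0.44 ± 0.16) also rose. The call of the former was lost without WT replicate 4 (adjusted p = 0.061) or Zeb1-200M replicate 2 (0.30), and that of the latter without WT replicates 1 (0.10) or 3 (0.074) or Zeb1-200M replicates 1 (0.14) or 3 (0.064). The latter was also not called with the DESeq2 Wald test (adjusted p = 0.072), without a filter on low counts (0.089) or with the replicate block (0.067), and the former not with the replicate block (0.068). The miR-181 family fell by 0.51 ± 0.11, from 8795 ± 1192 to 6156 ± 123 CPM, and the miR-7 family fell by 0.38 ± 0.10, from 186286 ± 24452 to 143036 ± 7307 CPM. The family of miR-148 and miR-152 fell by 0.31 ± 0.10, and without Zeb1-200M replicate 2 it was at -0.23 and not called (adjusted p = 0.11). Families were scaled and fitted on their own table, and the summed CPM given here are on the scale of the single miRNAs. Sums were not refitted with library totals.

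Sums hid or uncovered changes in a pair of cases. The miR-19 family, part of the miR-17/92 cluster, fell by 0.38 ± 0.15 (edgeR adjusted p = 0.045), although neither miR-19a-3p nor miR-19b-3p was called alone. This call was lost without WT replicates 1 (adjusted p = 0.13) or 2 (0.24) or Zeb1-200M replicates 1 (0.14) or 2 (0.20), with the DESeq2 Wald test (0.073) and with the replicate block (0.13). In the CCCUGAG family the increase of miR-125b-5p and the decrease of miR-125a-5p cancelled, and the sum was at 0.06 ± 0.09 (47109 ± 3392 CPM in WT, 49100.4 ± 4594 CPM in Zeb1-200M). The summed let-7 seed was at 0.00 ± 0.09. No strand of let-7a or let-7c was among those tested, so this sum is not read as the whole family.

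With the miR-200 strands set aside, both strands of a hairpin were tested for 51 hairpins. In 6 of them both strands were called. Outside the miR-200 strands 92 of the 269 single miRNAs tested were called, a share per strand and not per hairpin. Whether strands of a hairpin were called together more often than single calls would give was not tested. Among the 6, *Mir125a* and *Mir335* were lower and *Mir126a*, *Mir140*, *Mir384* and *Mir770* higher. Of the hairpins set aside, *Mir141* and *Mir200b* also had both strands tested and called lower. In *Mir125a* and *Mir770* the 3p strand passed the filter on low counts only through the genotype in which it is high. In 15 hairpins 1 strand was called, and in 10 of these the other strand had the same sign. Strands of opposite sign were those of *Mir540* (-1.09 for the 5p strand, 0.24 for 3p), *Mir672* (-0.70 and 0.45), *Mir409* (-0.80 and 0.07), *Mir127* (0.36 and -0.20) and *Mir212* (0.44 and -0.11). In each of these the 3p strand was not called, and whether the strands differed from each other was not tested. The calls of miR-127-5p and miR-212-5p were lost without Zeb1-200M replicate 3 (adjusted p of 0.097 and 0.095), and that of miR-212-5p also without WT replicates 1 (0.15) or 4 (0.078) or Zeb1-200M replicate 2 (0.20).

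Markers of the cell types that a pituitary sample can hold were followed beside these changes. Of 5 tested strands of the endocrine list, miR-375-3p and miR-7a-5p were called lower, beside 15.6% of all miRNAs tested, and the other 3 were not called. These 2 abundant strands also make up most of the list's summed level, which was 300821 to 340175 CPM in WT and 221780 to 244883 CPM in Zeb1-200M. With library totals 1 of the 5 was called and their median was -0.12. Neuronal markers summed to 12129 to 15093 CPM in WT and 21503 to 22119 CPM in Zeb1-200M, and most of this rise was that of miR-124-3p alone (from a mean of 1315 to 7342 CPM). Of 8 tested strands 3 were higher and 1 lower, beside 20.3% and 15.6% of all miRNAs tested. Besides miR-124-3p, these were miR-9-5p (0.89 ± 0.19) and miR-137-3p (0.44 ± 0.11), both higher, and miR-129-5p (-0.38 ± 0.13), lower, whereas miR-128-3p, miR-138-5p, miR-153-3p and miR-218-5p had 0.38, 0.23, 0.16 and 0.05 and were not called. Levels of miR-129-5p overlapped between the genotypes, and WT replicates 3 and 4 were the only libraries that could be left out without loss of its call (adjusted p of 0.0513 to 0.151). With library totals 6 of the 8 neuronal strands were called higher and none lower. The passenger strands miR-128-2-5p, miR-138-1-3p, miR-153-5p and miR-218-2-3p were at 0 in all 7 libraries.

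All 4 tested strands of the vascular and smooth muscle list, which come from 3 hairpins, were higher, beside 20.3% of all miRNAs tested, namely miR-126a-5p (0.39 ± 0.10), miR-126a-3p (0.28 ± 0.10), miR-143-3p (0.39 ± 0.12) and miR-145a-5p (0.33 ± 0.11), with sums of 10916 to 11466 CPM in WT and 13006 to 14858 CPM in Zeb1-200M. Of these, miR-126a-5p alone was called without each library in turn, and without Zeb1-200M replicate 1 the adjusted p of miR-126a-3p, miR-143-3p and miR-145a-5p was 0.11, 0.065 and 0.11. Without WT replicate 1 it was 0.073 for miR-126a-3p and 0.089 for miR-145a-5p, and without Zeb1-200M replicate 2 it was 0.16 and 0.056. Leukocyte markers were at 1349 to 1799 CPM in WT and at 2087 to 2504 CPM in Zeb1-200M, with miR-142-3p (0.94 ± 0.19) and miR-223-3p called higher of 5 tested, beside the same 20.3%. miR-223-3p had passed the filter on low counts only through its Zeb1-200M libraries. In the red blood cell list, miR-144-3p (0.57 ± 0.18) was called but the more abundant miR-451a (0.14 ± 0.12) was not. The call of miR-144-3p was lost without Zeb1-200M replicate 3 (adjusted p = 0.15). With library totals both strands were called higher. The oligodendrocyte list was at 895 to 1356 CPM in WT and 1454 to 1663 CPM in Zeb1-200M. Of its 2 tested strands, miR-338-3p was called (0.45 ± 0.15), but not without WT replicate 2 (adjusted p = 0.0534) or Zeb1-200M replicates 1 (0.0726) or 2 (0.0642), and miR-219a-5p was not called (0.28 ± 0.25, adjusted p = 0.42). None of 3 tested mesenchymal strands was called, against 2 with library totals. Striated muscle markers were near absent, with 5 of 6 strands at 0 in all 7 libraries. The part of these cell types in the changes above was not tested.

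Zeb1-200M pituitaries were also compared with those of Zeb1-200H females of the same cohort, to see where 2 mutant alleles differed from 1. Of 274 miRNAs tested, edgeR called 3 (1.09%), and 40 had an unadjusted p under 0.05. miR-200c-3p (-1.28 ± 0.15) and miR-141-3p (-1.02 ± 0.15) were lower in Zeb1-200M, and miR-124-3p was higher (0.85 ± 0.13, adjusted p = 1.2e-07). The comparison of Zeb1-200H with WT shares the WT libraries used above, and 32 of 267 miRNAs were called in it (12%). Against WT, miR-124-3p was at 1.64 in Zeb1-200H and at 2.48 in Zeb1-200M. miR-205-5p was at -3.22 and -2.98, and the difference between the mutants was 0.25 ± 0.23 (adjusted p = 0.67). For miR-375-3p the values were -0.59 and -0.62 (difference -0.02 ± 0.09, adjusted p = 0.95), and for miR-484 they were -0.95 and -0.93 (difference 0.03 ± 0.18, adjusted p = 0.95). miR-96-5p was at -1.59 and -1.98 (difference -0.37 ± 0.24, adjusted p = 0.49). Not called either were miR-149-5p, at 0.25 in Zeb1-200H and 1.20 in Zeb1-200M (difference 0.96 ± 0.31), and miR-7a-5p, at -0.16 and -0.45 (difference -0.28 ± 0.09), both with an adjusted p of 0.074.

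The virgin cohort shares no library with this one, but it differs in age, breeding, sequencer, depth and miRNA dictionary, which cannot be told apart. Its WT replicate 1 held 3816917 counts, against 8502878 to 10806313 in the other 6 libraries, and stood apart in composition, with 18.3% of its counts from miR-7a-5p. Of the 92 miRNAs called in the breeding trial, 87 were tested there, and 77 had the same sign (88.5%), compared with 185 of all 257 tested in both (72.0%). Without virgin WT replicate 1 the counts were 84 of 87 (96.6%) and 205 of 257 (79.8%). miR-124-3p, the largest increase of the breeding trial, was not among those tested in the virgin cohort. The paper reports it as increased there. The virgin cohort itself gave 42 calls of 610 (6.89%), or 155 of 633 (24.5%) without WT replicate 1. Of the 87, 17 were called in the same direction and 0 in the opposite one, and without that replicate 55 and 0.

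Single members had similar values in both cohorts in several cases. miR-205-5p was at -2.98 in the breeding trial and -3.05 in the virgin cohort, miR-96-5p at -1.98 and -2.02, miR-182-5p at -1.73 and -1.83, miR-183-5p at -1.80 and -2.35, and miR-34c-5p at 1.496 and 1.31. miR-544-3p was at 1.35 and 1.78. Others were further apart. The Sfmbt2 strands miR-669d-5p, miR-467d-5p, miR-669c-5p and miR-467a-5p, at 1.58, 1.20, 0.98 and 0.67 in the breeding trial, were at 0.06, -0.74, -0.56 and -0.74 in the virgin cohort, and at 0.14, 0.18, 0.03 and 0.17 without virgin WT replicate 1. miR-540-5p was at -1.09 in the breeding trial and at 0.00 in the virgin cohort, or -0.41 without that replicate.

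The difference between the cohorts was tested as an interaction over the miRNA names both list. edgeR called 0 of 485 miRNAs (0%), with 27 at an unadjusted p under 0.05, and DESeq2 called 0 with 30 at an unadjusted p under 0.05. For the 4 Sfmbt2 strands the interaction was 1.35 to 1.89, with unadjusted p between 0.0034 and 0.027 and adjusted p between 0.68 and 0.69, so that no difference between the cohorts passed the test. Without any filter on low counts, 5 of 1241 miRNAs were called.

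**Figure D5:**
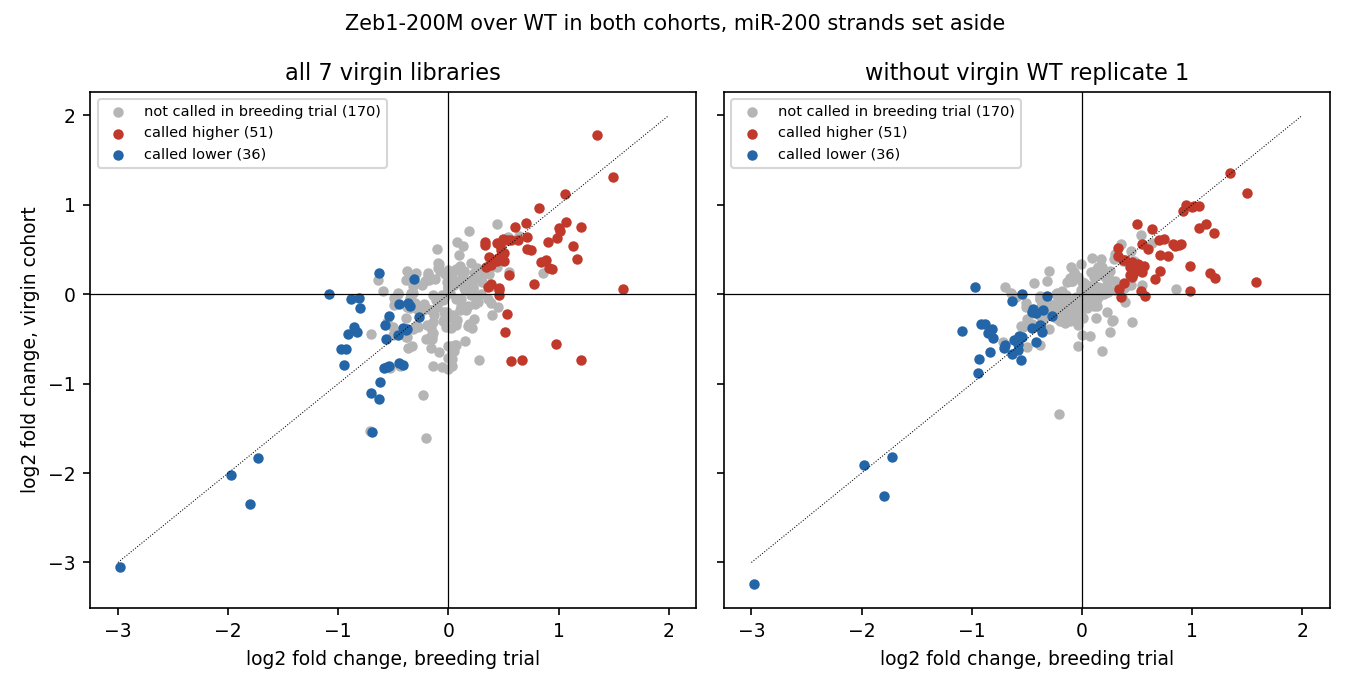
Log2 fold changes of Zeb1-200M over WT in the breeding trial (horizontal) and in the virgin cohort (vertical) for 257 miRNAs tested in both, with all 7 virgin libraries on the left and without virgin WT replicate 1 on the right. The dotted line marks equal values, and 77 of the 87 called miRNAs have the same sign on the left and 84 on the right. miR-124-3p, not tested in the virgin cohort, is not shown.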

How the data were processed

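Size-selected small RNAs, with yeast RNA as carrier, were sequenced on a HiSeq instrument. After trimming with cutadapt and quality filtering, the authors assigned a read to a miRBase miRNA when its first 18 nt matched. Per the file headers, the deposited values used here are raw counts per miRNA and library. The authors also deposited counts divided by DESeq2 size factors (signal), log2 fold changes, scores (Wald statistics) and p-values, which were not used. No collapse of reads to molecules is described in the sources used here. Of the 1841 listed names, 1573 matched a RefSeq mature sequence. RefSeq also holds 23 mature names that share their first 18 bases with another, and 0 of these are listed for this cohort. Such miRNAs could not be followed here. No strand of let-7a, let-7c, miR-23, miR-27, miR-30b or miR-30c was among those tested.

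Each pair of groups was compared on raw counts by the quasi-likelihood F test of edgeR 4.0.16 under R 4.3.3, after TMM scaling and a filter on low counts (minimum 10, total 15), with Benjamini-Hochberg adjustment over all miRNAs tested and a threshold of 0.05. Standard errors were derived from the F statistic. The fits were tested on simulated data, the outcome of which is not given here and is not used as support. Lists are described by counts and medians. Hairpin positions are from GENCODE vM21 and seeds from RefSeq, both on GRCm38.

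Named are the 12 largest increases and decreases among called miRNAs outside the miR-200 strands whose groups did not overlap and whose higher mean was at least 10 CPM, the 10 most abundant called miRNAs, the 4 most abundant called members of lists with at least 3 strands tested and 50% or more of them called in 1 direction, and cell type markers. Members and lists were chosen with earlier results of these data known. Other miRNAs were named after their values were seen. Alternatives were DESeq2 1.42.0, limma 3.58.1 voom, other scalings, filters and thresholds, a robust fit, a common fit of 3 genotypes, a replicate block and leaving out each library.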

Additional observations from a re-analysis of the deposited data

Results flagged for a closer look

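Of 47 WT groups of 4 libraries examined for a single library set apart from the others, 3 were flagged, and chance flags about 1 in 20. For miR-149-5p, WT replicate 4 was the lowest at 63.0 CPM, with the other 3 WT libraries up to 128 CPM. miR-484 had its highest WT level in replicate 2, at 1977 CPM, and its lowest at 1406 CPM. In miR-32-5p, WT replicate 1 was the highest at 327 CPM, with the other 3 from 201 CPM. Zeb1-200M groups of 3 libraries were not examined.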

How the results depend on the processing

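The count of miRNAs called in Zeb1-200M against WT was 99 and lay between 76 and 110 in the alternatives at the same threshold, with 76 to 98 when 1 library was left out, lowest without Zeb1-200M replicate 2. At an adjusted p below 0.01, 58 were called. Replicate numbers did not pair the libraries (correlations of same-numbered deviations of 0.019, -0.10 and -0.029), and with the replicate number as a block 84 of 270 were called, 76 of them shared with the 99. The library totals setting, added after seeing the data, is given with its split of directions in the report. No call changed its direction. Of the 92 calls outside the miR-200 strands, 44 were lost in at least 1 of the fits without a single library, and 4 were lost only with library totals. Between Zeb1-200M and Zeb1-200H the 3 calls became 0 with the replicate block, 4 with DESeq2 size factors, and 3 to 5 when 1 library was left out, with 5 without Zeb1-200M replicate 2. The interaction with the virgin cohort gave 5 calls without a filter on low counts and 0 in every other setting, including 0 with the replicate block. Seed families gave 66 calls, 45 to 66 when 1 library was left out and 49 with the replicate block. Depth limits what can be seen at low levels, since 3 counts in the smallest library equal 35.7 CPM, and miRNAs below the filter could not be tested.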
